A study of Mus musculus with 12 samples.

Results

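The 10 genes described here are members of the mammalian circadian clock, namely Per1, Per2, Per3, Cry1, Cry2, Arntl, Clock, Nr1d1, Nr1d2 and Dbp. They were taken by name from the expression table, in which all 10 were found among 41128 genes. Total RNA of splenic lymphocytes was sequenced in 12 libraries. The mice were C57BL/6J, 6 to 8 weeks old, and the labels name no treatment or mutation. The libraries form 4 groups of 3, which are resting CD43- B cells from females and from males (numbered 1 to 3 in each sex) and naive CD4+ CD62L+ T cells from females and from males (numbered 4 to 6). Each library came from sorted or purified cells of pooled mice, so replicates are separate pools rather than single animals. The question was whether clock genes varied together between these pools. The time of day at which spleens were collected was not given in the sources used here.

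The clock is a feedback loop of transcription that runs in most cells. Arntl (also called BMAL1) and Clock form a pair of transcription factors that binds E-boxes and drives the Per and Cry genes, whose proteins then repress that pair. The same pair drives Nr1d1 and Nr1d2, nuclear receptors (REV-ERB alpha and beta) that repress Arntl, and Dbp, a transcription factor that acts at D-boxes. In tissues sampled around the day, Arntl peaks nearly opposite to Dbp and the Per genes. Lymphocytes carry such a clock too.

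The promoters of Per1, Cry1, Per3 and Arntl hold short motifs at which clock factors are known to bind. The windows are RefSeq sequences of GRCm38.p6, from 250 bases before to 50 bases after a start site, printed 5′ to 3′ on the strand of the gene, and they are shown as examples of the motifs searched for. The windows of Cry2 and Nr1d1, not shown, hold 1 of them. Capitals mark the E-box CACGTG in Per1 and Cry1, the related CACGTT (read on the other strand as AACGTG) in Cry1, the D-box TTATGTAA in Per3 and the ROR element core TAGGTCA in Arntl, where REV-ERB and ROR receptors can bind. They lie at chr11:69098699-69098998 (plus strand, Per1), chr10:85185005-85185304 (minus strand, Cry1), chr4:151044616-151044915 (minus strand, Per3) and chr7:113207261-113207560 (plus strand, Arntl).
Per1: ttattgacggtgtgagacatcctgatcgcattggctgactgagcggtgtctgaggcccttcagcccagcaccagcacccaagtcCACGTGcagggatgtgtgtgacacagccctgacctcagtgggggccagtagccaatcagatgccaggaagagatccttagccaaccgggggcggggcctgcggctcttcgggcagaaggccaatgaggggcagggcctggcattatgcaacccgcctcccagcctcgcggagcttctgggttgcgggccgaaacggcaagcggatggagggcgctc
Cry1: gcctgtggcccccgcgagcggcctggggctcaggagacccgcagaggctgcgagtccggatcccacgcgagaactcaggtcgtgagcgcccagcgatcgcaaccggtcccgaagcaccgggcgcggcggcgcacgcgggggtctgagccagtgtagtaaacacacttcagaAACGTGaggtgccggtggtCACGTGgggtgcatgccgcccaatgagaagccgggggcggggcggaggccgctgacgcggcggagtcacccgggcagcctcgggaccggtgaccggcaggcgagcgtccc
Per3: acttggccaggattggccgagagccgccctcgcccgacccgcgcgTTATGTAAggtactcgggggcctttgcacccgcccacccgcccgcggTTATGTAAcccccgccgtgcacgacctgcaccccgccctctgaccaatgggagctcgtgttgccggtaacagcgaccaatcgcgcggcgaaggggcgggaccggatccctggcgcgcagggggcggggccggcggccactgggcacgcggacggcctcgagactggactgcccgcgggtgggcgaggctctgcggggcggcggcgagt
Arntl: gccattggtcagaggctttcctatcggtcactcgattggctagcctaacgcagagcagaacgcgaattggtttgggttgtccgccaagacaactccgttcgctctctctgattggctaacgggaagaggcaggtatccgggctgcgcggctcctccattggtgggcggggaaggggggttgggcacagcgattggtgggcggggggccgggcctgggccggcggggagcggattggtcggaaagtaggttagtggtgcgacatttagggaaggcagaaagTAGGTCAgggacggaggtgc

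Both strands of 32851 such windows were searched, and 9 of the 10 clock genes had a window. CACGTG was present in 7.15% of all windows and in 2 of these 9 genes. CACGTT was in 4.68% of windows and in Cry1, Cry2 and Nr1d1. TTATGTAA was in 0.938% of windows and occurred 2 times in that of Per3, starting 205 and 158 bases before the start site. TAGGTCA was in 2.61% of windows and only in Arntl among the clock genes, starting at base 31 after 1 of its start sites. The forms TTACGTAA (0.119% of windows), TGGGTCA (3.98%) and TGACGTCA (1.79%) were in none of the 9 genes.

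The genes lie apart from each other in the genome (GRCm38, GENCODE M21), and all 10 are protein-coding. Per1 and Nr1d1 are on the same chromosome, at chr11:69095217-69109960 and chr11:98767932-98775333, and so are Dbp (chr7:45705088-45710203) and Arntl (chr7:113207465-113314126). Per2 is at chr1:91415982-91459324, Cry2 at chr2:92403646-92434043, Per3 at chr4:151003652-151044665, Clock at chr5:76209868-76304792, Cry1 at chr10:85131700-85185064 and Nr1d2 at chr14:18204054-18239127. Other protein-coding genes overlap Per3, Nr1d1 and Dbp and are given beside them.

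Levels are given as adjusted TPM, by its name a length-corrected share of transcripts, so that genes were compared per length. How it was adjusted is not given in the sources used here. In B cells the mean over 6 libraries was highest for Arntl (12.7 ± 0.662, SD, n = 6), followed by Nr1d2 (11.9 ± 1.51), Per1 (10.7 ± 2.61), Cry1 (8.59 ± 0.620), Clock (8.26 ± 0.381), Dbp (6.44 ± 0.666), Cry2 (4.46 ± 0.227), Per2 (2.29 ± 0.257), Per3 (1.55 ± 0.132) and Nr1d1 (0.231 ± 0.0598). In T cells the order was Cry1 (15.8 ± 1.67), Nr1d2 (14.5 ± 0.921), Dbp (12.6 ± 1.14), Arntl (9.09 ± 0.839), Clock (7.12 ± 1.26), Cry2 (5.93 ± 0.643), Per1 (5.86 ± 0.895), Per2 (0.775 ± 0.0868), Nr1d1 (0.657 ± 0.114) and Per3 (0.314 ± 0.0540). The libraries of neighbours in the order overlapped among the first 5 genes in B cells, whereas from Clock downwards each gene lay apart from the next. In T cells Dbp lay apart from Arntl, Per1 from Per2 and Nr1d1 from Per3, and all other neighbours overlapped.

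**Figure D1:**
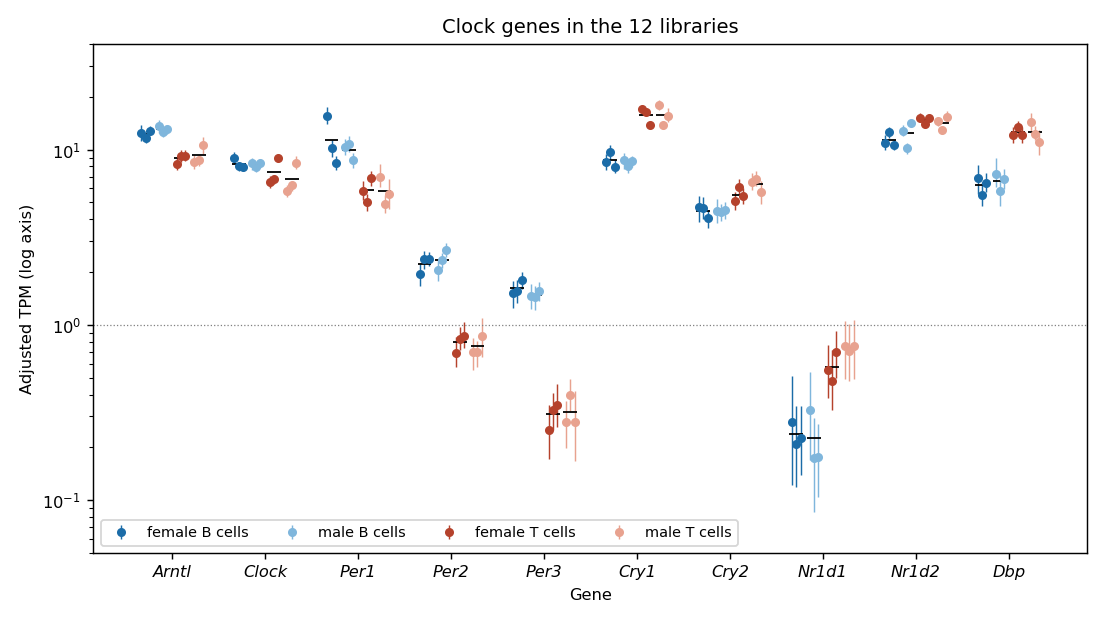
Adjusted TPM (log axis) of the 10 clock genes in each of the 12 libraries, by cell type and sex, with the deposited lower and upper bounds as bars and the group mean as a black line. The dotted line is at an adjusted TPM of 1. Per2, Per3 and Nr1d1 fall below it in T cells, and Nr1d1 also in B cells, where its bounds are wide.

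The cell types differed in the level of most clock genes, in both directions. Whether B and T cells were collected at the same time of day is not given in the sources used here. A difference of cell type therefore cannot be told apart from one of collection time. Higher in B cells were the 3 Per genes and Arntl, whereas Cry1, Cry2, Nr1d2 and Dbp were higher in T cells. These calls come from limma on log2(adjusted TPM + 1) over 12520 genes with at least 1 adjusted TPM in at least 3 libraries, at a Benjamini-Hochberg adjusted p under 0.05, and this pseudocount understates the change of low genes. Of the 10 clock genes, 9 passed that filter and 8 were called, 4 in each direction. The 8 include Per2 and Per3, which passed the filter through B cells alone. Across all genes 73.0% were called, 31.4% with the higher level in B cells and 41.6% with that in T cells, so a difference between these cell types was common. As a check of the labelled cell types, 5 B cell marker genes summed to 2610 to 2972 adjusted TPM (B cells) and 0.900 to 5.34 (T cells), and 5 T cell marker genes to 9.76 to 14.1 (B cells) and 1017 to 1194 (T cells).

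Among the Per genes, which encode repressors of the loop, Per1 was the most abundant. Its libraries ran from 8.37 (female B cell 3) through a median of 10.2 to 15.6 (female B cell 1) in B cells, and from 4.91 through 5.70 to 6.99 in T cells. The cell types did not overlap, the ratio of means was 1.82, and the log2 fold change was 0.75 (SE 0.13, limma adjusted p = 0.00023). Per2 ran from 1.94 through 2.35 to 2.66 in B cells and from 0.692 through 0.767 to 0.864 in T cells. Its log2 fold change was 0.89 (SE 0.069, limma adjusted p = 1.0e-07). Per3 ran from 1.43 through 1.54 to 1.80 in B cells and from 0.252 through 0.303 to 0.397 in T cells, a ratio of means of 4.96. Its log2 fold change was 0.96 (SE 0.060, limma adjusted p = 9.8e-09), and 2.01 with a pseudocount of 0.1. Per2 and Per3 stayed under 1 in every T cell library, so both passed the filter through B cells alone. Per3 overlaps Camta1 on the same strand, and Camta1 was higher in B cells as well, with a log2 fold change of 0.45 (SE 0.078, limma adjusted p = 0.00022).

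The Cry genes, partners of the Per proteins in repression, were higher in T cells. Cry1 ran from 7.99 through 8.54 to 9.72 in B cells and from 13.8 through 15.96 to 17.96 in T cells, without overlap, and its log2 fold change was -0.80 (SE 0.075, limma adjusted p = 6.9e-07). Cry2 ran from 4.07 through 4.49 to 4.71 in B cells and from 5.08 through 5.89 to 6.77 in T cells. Its change was smaller, at -0.34 (SE 0.063, limma adjusted p = 0.00034). Per1 and Cry1, the pair of genes whose printed windows hold CACGTG, thus moved in opposite directions between the cell types. Within each library the ratio of Cry1 to Per1, which no scaling between libraries can alter, was between 0.541 and 0.986 for B cells and between 2.02 and 3.27 in T cells.

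Of the activating pair, Arntl was higher in B cells, and Clock was not called. Arntl ran from 11.6 through 12.7 to 13.6 in B cells and from 8.30 through 8.94 to 10.6 in T cells, with a log2 fold change of 0.44 (SE 0.062, limma adjusted p = 3.1e-05). Clock had 8.94, 8.00 and 7.98 in female B cells, 8.34, 7.93 and 8.34 in male B cells, 6.54, 6.77 and 8.95 in female T cells and 5.82, 6.24 and 8.42 in male T cells. The cell types overlapped through both T cell libraries numbered 6, which reached the range of the B cells. The log2 fold change of Clock was 0.20 (SE 0.092, limma adjusted p = 0.065). It was 0.26 without female T cell 6 (limma adjusted p = 0.014) and 0.27 without male T cell 6 (limma adjusted p = 0.0085), so that each of these libraries decided the call.

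Dbp, the D-box factor, was higher in T cells. It was 6.84, 5.51 and 6.48 in female B cells, 7.24, 5.78 and 6.79 in male B cells, 12.1, 13.4 and 12.2 in female T cells and 14.3, 12.3 and 11.01 in male T cells. Every T cell library lay above every B cell library, with a log2 fold change of -0.87 (SE 0.078, limma adjusted p = 4.3e-07). Within each library the ratio of Dbp to Arntl was 0.457 to 0.551 for B cells and 1.04 to 1.68 for T cells. Sphk2, which overlaps Dbp on the other strand, was not called, with a log2 fold change of -0.06 (limma adjusted p = 0.35).

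Nr1d2 was modestly higher in T cells, at 12.9 through 14.8 to 15.3 against 10.2 through 11.7 to 14.1 in B cells. The cell types overlapped, and the log2 fold change was -0.28 (SE 0.078, limma adjusted p = 0.0064). Nr1d1 was low everywhere and was not tested. It ran from 0.174 through 0.217 to 0.324 in B cells and from 0.481 through 0.701 to 0.754 in T cells, without overlap. Single libraries had bounds as far apart as 0.121 and 0.512 (female B cell 1). Thra, which overlaps Nr1d1 on the other strand, was also higher in T cells, with a log2 fold change of -1.77 (SE 0.067, limma adjusted p = 5.6e-11). The library kit keeps strand, how the counting used it is not given in the sources used here, and the part of Thra reads in the Nr1d1 value was not tested.

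The libraries of the cell types did not overlap for 7 of the 9 clock genes tested, where 53.9% of all tested genes did not overlap. The 7 include Per2 and Per3, which passed the filter through B cells alone, so their separation is tied to that filter. The scaling between libraries moved the smaller differences. When libraries were brought to an equal sum of 1000000, the median difference over all 12520 genes moved from -0.09 to 0.25 in log2, and genes higher in B cells made up 70.8% of the calls in place of 43.0%. Under median-ratio scaling they made up 52.3%. Under the rescaling to 1000000 Nr1d2 changed sign (0.08, limma adjusted p = 0.74), Cry2 lost its call (-0.02, limma adjusted p = 0.93) and Clock gained one (0.55, limma adjusted p = 0.0089). Relative to the median of all genes the values moved little. Nr1d2 lay at -0.19 from that median as deposited and at -0.18 after rescaling, Cry2 at -0.25 and -0.28, and Clock at 0.29 both times.

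**Figure D2:**
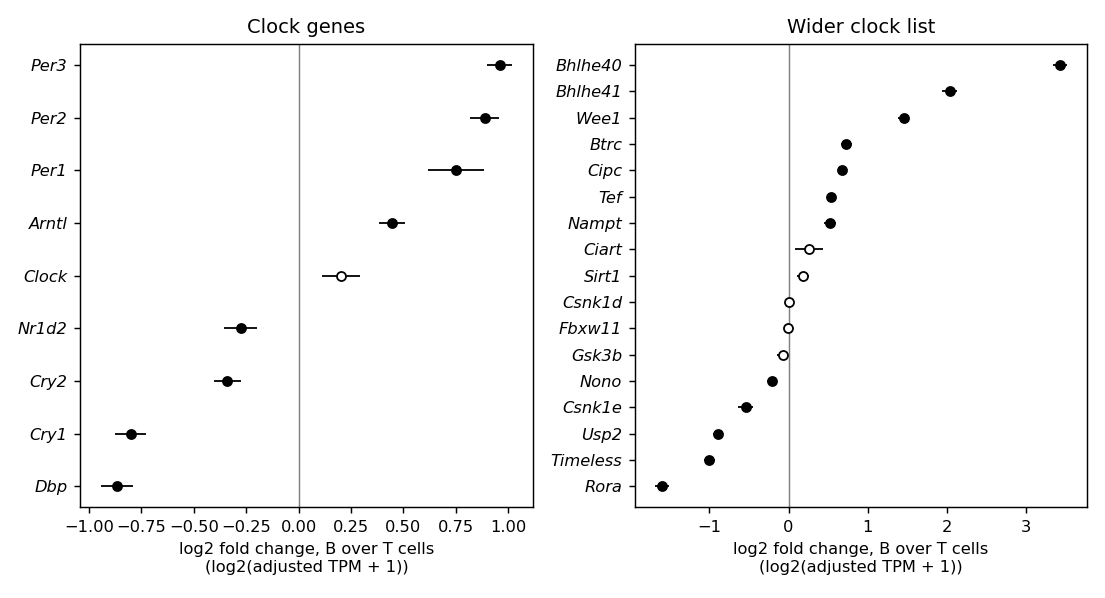
Fitted log2 fold change of B over T cells on the log2(adjusted TPM + 1) scale, with its standard error as a bar, for the 9 clock genes tested (left) and the 17 tested genes of the wider clock list (right). Filled points had a limma adjusted p under 0.05. Among the clock genes, 4 filled points lie on each side of 0 and Clock is open.

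A wider list of 23 genes held other parts of the clock. Of these, 17 passed the filter and 12 (70.6%) were called between the cell types, against 73.0% of all genes. Higher in B cells were 7 genes. They included Bhlhe40 and Bhlhe41, which encode repressors that bind E-boxes, with log2 fold changes of 3.43 (SE 0.085) and 2.03 (SE 0.093). Bhlhe41 ran from 2.25 through 3.21 to 3.93 adjusted TPM in B cells and stayed at or below 0.00550 in T cells. The kinase gene Wee1, a clock-driven regulator of entry into mitosis, was higher by 1.46 (SE 0.073). Tef, a D-box factor related to Dbp, was higher in B cells by 0.54 (SE 0.056), the opposite direction to Dbp. Btrc, a ubiquitin ligase subunit that acts on Per proteins, Cipc, which binds Clock, and Nampt, an enzyme of NAD synthesis, were higher by 0.73, 0.68 and 0.52. All 7 had a limma adjusted p of 3.8e-05 or less.

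Higher in T cells were 5 genes of the wider list. Rora, an activator at the ROR elements where Nr1d1 and Nr1d2 repress, ran from 1.72 through 1.89 to 2.68 adjusted TPM in T cells and from 0.00501 through 0.00743 to 0.0203 in B cells, with a log2 fold change of -1.60 (SE 0.085, limma adjusted p = 1.9e-09). Timeless had -0.999 (SE 0.071), the deubiquitinase gene Usp2 -0.89 (SE 0.066), the casein kinase gene Csnk1e -0.54 (SE 0.092) and Nono -0.21 (SE 0.058). Csnk1d, Fbxw11, Ciart, Sirt1 and Gsk3b were not called. At the equal library sum the split of the 12 calls was 9 higher in B cells and 3 in T cells, since Nono turned sign (0.17, limma adjusted p = 0.50), Csnk1e lost its call (-0.20, limma adjusted p = 0.39), and Ciart and Sirt1 were called (0.49 and 0.56, limma adjusted p = 0.0050 and 0.0093). Bhlhe40, Bhlhe41 and Wee1 passed the filter through B cells alone, and Rora and Usp2 through T cells alone. The 6 genes under the filter were Npas2, Arntl2, Rorb, Fbxl21, Nfil3 and Hlf, with values below 1 in all 12 libraries.

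No clock gene passed the test between females and males. In B cells 0.144% of all genes were called in this contrast, in T cells 0.104%, and for the difference between the sex effects 0. None of the 9 clock genes was called by limma in these 3 contrasts, and none had an unadjusted p under 0.05, which 2.98%, 2.55% and 2.36% of all genes had. The largest sex difference in B cells was that of Per1, at 0.14 (11.4 ± 3.78 in females and 9.92 ± 1.04 in males, SD, n = 3 each), and in T cells that of Cry2, at -0.17. No gene of the wider list was called either.

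Between pools of one group, the clock genes varied about as much as other genes. The SD of log2(adjusted TPM + 1) within groups, pooled over the 4 groups, had a median of 0.134 over the 9 clock genes and of 0.135 over all 12520 genes. The deposited bounds of replicate libraries were separate in a median of 2 of 12 pairs for both. Per1 had the highest SD of the clock genes (0.267, above 92.5% of genes tested), followed by Clock (0.172, above 70.7%), Nr1d2 (0.141), Dbp (0.138) and Cry1 (0.134). Per2 (0.102), Arntl (0.0982), Cry2 (0.0917) and Per3 (0.0654) varied least, though the pseudocount holds down the SD of low genes. Tested genes within 0.5 log2 of the mean of Per2 or of Per3, under the same pseudocount, had a median SD of 0.163. Per2 lay above 13.5% of such genes and Per3 above 2.7%. From lowest to highest library, Dbp differed 1.31-fold among B cell libraries and 1.30-fold among T cell libraries, and Arntl 1.17-fold and 1.28-fold.

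The spread of Per1 came largely from a single pool. Female B cell 1 had 15.6 adjusted TPM (bounds 13.9 and 17.4), whereas the other 5 B cell libraries had 8.37 to 10.7. This library also had the highest B cell value of Ciart, a repressor of the activating pair, at 3.41 against 1.05 to 1.89, and Ciart had an SD of 0.362, above 96.8% of genes tested. The immediate early gene Fos was 173.6 there and 16.6 to 110.5 in the other B cell libraries. Female B cell 1 was 1 of the pair of libraries with the highest share of a single RNA, Yam1, at 32.2% of its total, the other being male T cell 6 at 37.4%. Without both of these libraries the log2 fold change of Per1 between the cell types was 0.62 (limma adjusted p = 0.00058). Female B cell 1 was also highest under median-ratio scaling (16.7 against 8.66 to 11.3), but not at the equal library sum (15.6 against 12.5 to 15.97), where the SD of Per1 (0.261) lay below the median of all genes (0.298) and below that of Dbp (0.320). The part of early gene induction and of Yam1 in the Per1 value was not tested.

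In T cells the libraries of the same number deviated together. Clock was 8.95 and 8.42 in the T cell libraries numbered 6, in females and males, and 5.82 to 6.77 in the other 4. Rora was 2.49 and 2.68 in the libraries numbered 6 and 1.72 to 1.94 in the others. Under median-ratio scaling both libraries numbered 6 remained the highest for Clock (8.86 and 8.00 against 5.53 to 6.49), but at the equal library sum male T cell 6 was the lowest (5.79) and female T cell 6 the highest (11.2). As deposited, Ciart was lower, at 0.915 and 0.657 against 1.28 to 1.81, and Usp2 at 0.848 and 0.720 against 1.01 to 1.10. The same 2 libraries had lower Fos (45.2 and 41.5 against 108.4 to 189.0) and higher Ddit4 (80.9 and 139.5 against 34.9 to 41.3), a stress-responsive gene. Of the 8 immediate early genes listed, Fosb, Jun, Junb, Ier2 and Dusp1 also lay below their group means in both libraries. Nr4a1 lay above them (by 0.173 and 0.497 in log2), and Egr1 deviated by -0.012 and 0.122. Ddit4 is 1 of 7 glucocorticoid-responsive genes listed. Of these, Tsc22d3 also lay above its group means in both libraries (by 0.404 and 0.678). Sgk1 deviated by -0.130 and -0.00047, and Fkbp5, Klf9 and Nr3c1 by 0.005 to 0.098. Il2ra, which encodes CD25, a protein used to exclude cells in the sort, was 4.999 and 4.11 against 0.158 to 0.340. It is 1 of 4 genes listed for regulatory or activated T cells. Over all T cell libraries, the others ran from 0.440 to 2.57 (Foxp3), 5.89 to 10.7 (Cd44) and 41.9 to 97.3 (Cd69). The part of these in the Clock and Rora values was not tested. Over the 9 clock genes, the female and male library of a number deviated from their group means in the same direction in 66.7% of 27 cases in T cells, and over all tested genes in 65.1%. In B cells the shares were 55.6% and 44.9%.

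**Figure D3:**
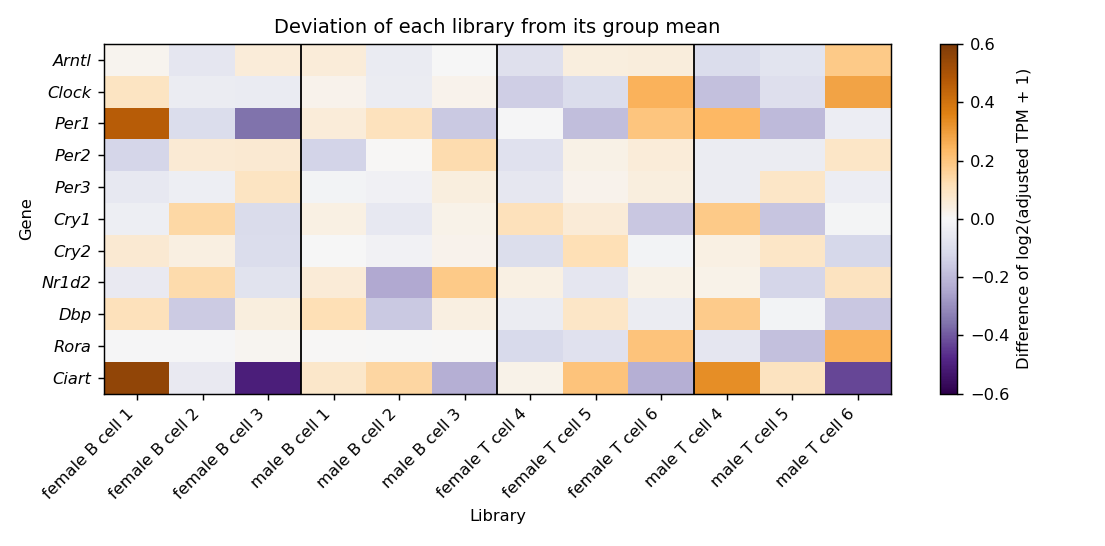
Deviation of each library from the mean of its group of 3, in log2(adjusted TPM + 1), for the 9 clock genes tested and for Rora and Ciart. Each column is 1 library and black lines separate the groups. Per1 and Ciart are high in female B cell 1, and Clock and Rora are high in both T cell libraries numbered 6, in the values as deposited.

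Pairs of clock genes showed no common direction of variation between pools. Across the 6 libraries of a cell type, the median Pearson's r over the 36 pairs of the 9 genes was -0.003 for B cells and -0.006 for T cells, where the median over all pairs of tested genes was 0.043 and 0.021. Positive pairs numbered 18 of 36 (B cells) and 17 of 36 (T cells). The genes were split by known phase, with Arntl, Clock and Cry1 in one arm and the Per genes, Cry2, Nr1d2 and Dbp in the other. Between the arms 10 of 18 pairs (B cells) and 9 of 18 (T cells) were positive, and within the arms 8 of 18 in both cell types.

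None of the 72 correlations passed Benjamini-Hochberg adjustment of exact permutation p-values over all 720 orders, and the smallest adjusted p was 0.20. With 6 libraries the smallest p that the permutations can give is 0.0014, so a lone pair could not go below an adjusted p of 0.10, and the adjustment says nothing about single pairs. The smallest unadjusted one was that of Per2 and Arntl in T cells, with r = 0.833 (exact permutation p = 0.0028) and rho = 0.943 (exact permutation p = 0.017). It was 0.935 without the 2 libraries farthest from the median of the first gene. Per2 and Clock in T cells had r = 0.865 (exact permutation p = 0.013) and rho = 0.829 (exact permutation p = 0.058), and r = 0.655 without those 2 libraries. Cry2 and Nr1d2 in T cells had r = -0.825 (exact permutation p = 0.039) and rho = -0.771 (exact permutation p = 0.10), and r = -0.713 without them. For this pair r was -0.756 under median-ratio scaling but 0.729 at the equal library sum. Since T cell libraries of the same number deviated together, the 6 T cell libraries are not fully independent and these p-values may be too small.

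Arntl and Dbp, which peak at opposite times of day, had r = 0.805 in B cells (exact permutation p = 0.042, adjusted 0.62) and rho = 0.657 (exact permutation p = 0.17, adjusted 0.79). With any 1 library left out r stayed between 0.575 and 0.921, and it was 0.889 with group means subtracted. Without the 2 libraries farthest from the median of Arntl, on the 4 left, r was 0.128. Leaving them out also narrows the range of Arntl, so this value cannot show whether the relation rested on those samples. In T cells the same pair had r = -0.624 (exact permutation p = 0.18, adjusted 0.79) and rho = -0.371 (exact permutation p = 0.50, adjusted 0.92), and r = -0.468 without the 2 farthest libraries. With any 1 T cell library left out r lay between -0.809 and -0.051, so the negative value depended on single libraries. Over the 3 libraries of each sex, r was 0.479 (females) and -0.867 (males) in T cells, and 0.855 and 0.951 in B cells. The difference between the cell types was not tested. At an equal library sum of 1000000, Arntl and Dbp had r = 0.939 in B cells and 0.850 in T cells, so the opposite signs were lost. Under median-ratio scaling they had 0.804 and -0.530. At the equal library sum the median r over all clock gene pairs rose to 0.865 (B cells) and 0.773 (T cells), and that of all gene pairs to 0.784 and 0.783.

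**Figure D4:**
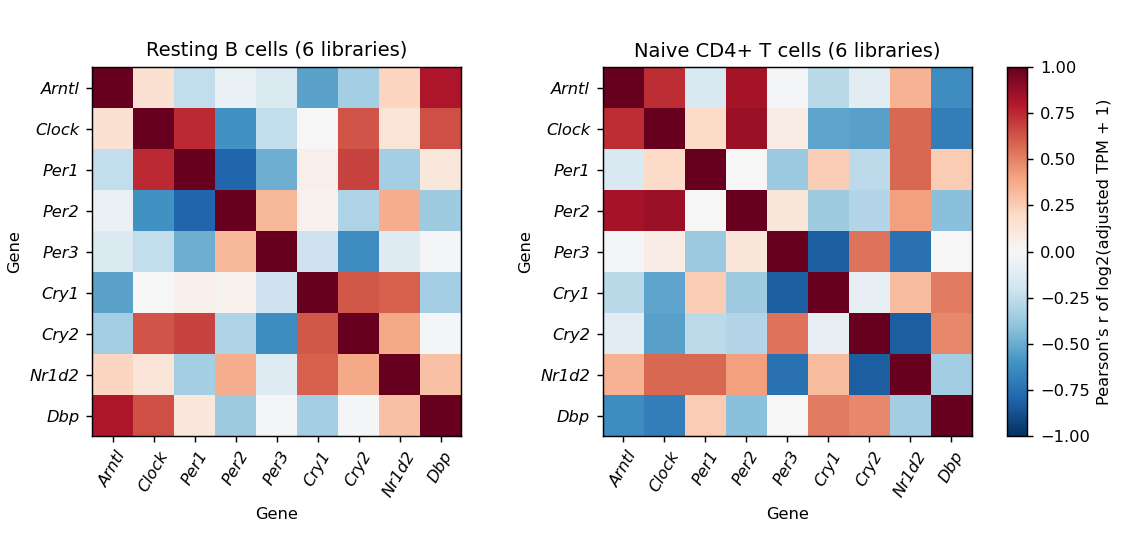
Pearson's r of log2(adjusted TPM + 1) for each pair of the 9 clock genes tested, over the 6 B cell libraries (left) and the 6 T cell libraries (right). Red is positive and blue negative. Red and blue cells are about equally frequent in both panels (18 and 17 of 36 pairs positive), and the pair of Arntl and Dbp is red in B cells and blue in T cells, in the values as deposited.

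As a description, the deviations from the group means over all 12 libraries were compared between genes whose log2 value averaged 2 or more. Most like Dbp were RP23-456M3.4 (r = 0.94), Faim (0.92), Lrsam1 (0.92), 1110008L16Rik (0.91) and Pvr (0.91), and least like it Kif1b, Snx27, Dpf2, Mif4gd and Rbm14 (-0.89 to -0.87). Most like Arntl were Zfp597 (0.97), 2810403A07Rik (0.95), Zzz3 (0.95), Pnpla8 (0.95) and Ccnj (0.95), and least like it Ptk2b, Igfbp4, Ubtf, Wdr81 and Numa1 (-0.93 to -0.92). None of these genes is on the clock lists. Among 12519 tested genes ranked by likeness to Arntl, Clock stood at rank 332 (r = 0.78) and Rora at rank 391 (r = 0.77), and Usp2 at rank 12416 (r = -0.84). In the ranking for Dbp, Timeless stood at rank 208 (r = 0.70) and Tef at rank 727 (r = 0.57), and Per2 at rank 11087 (r = -0.44). Wee1 (rank 11426, r = -0.49) and Gsk3b (rank 11914, r = -0.57) of the wider list stood below Per2. Most of these ranks or r values moved far at the equal library sum but little under median-ratio scaling. Under the latter Clock, Rora and Usp2 stood at ranks 222, 418 and 12376 for Arntl. Timeless, Tef and Per2 stood at ranks 204, 653 and 10984 for Dbp. At the equal library sum Clock stood at rank 3589 and Rora at rank 11680 for Arntl, Usp2 had r = 0.52 with Arntl and Per2 had r = 0.60 with Dbp, whereas Timeless and Tef stood at ranks 115 and 496 for Dbp. The points share libraries in which many genes deviate together, as the T cell libraries numbered 6 show.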

How the data were processed

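Per the labels, ERCC spike-ins (not analysed here) were added to the extracted RNA, ribosomal RNA was depleted, and the library kit keeps strand. The authors deposited a signal per gene and library named adjusted TPM, by its name a length-corrected share of transcripts, with a lower and an upper bound. The submitters' processing notes name Trim Galore, FastQC, STAR and the build mm10. The quantification, the adjustment and the level of the bounds are not given in the sources used here. The signal of a library summed to 561020 to 1453940, so it is neither plain TPM nor counts, and sequencing depth is unknown. Precision was read from the bounds, whose median ratio was 1.30 to 1.55 per library for genes at 1 to 10, 1.11 to 1.19 at 10 to 100 and 2.92 to 5.54 at 0.1 to 1. Between 11122 and 11543 genes reached 1 in a library.

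Values were transformed as log2(adjusted TPM + 1) and fitted with limma 3.58.1 (R 4.3.3), with a mean-variance trend and 1 coefficient for each of the 4 groups, for genes of at least 1 in at least 3 libraries. The planned count test was not used because the values are not counts. The fit was tested on simulated data. Correlations and plots used Python 3.11.15, numpy 2.4.6, pandas 2.3.3, scipy 1.17.1 and matplotlib 3.10.9. Gene overlaps come from GENCODE M21 (GRCm38), to which 40254 of 41128 genes matched by identifier. Alternatives were other scalings, a pseudocount of 0.1, no filter, a filter at 5, no trend, each cell type alone, a replicate block and leaving out libraries; leaving out 2 libraries together was added after seeing the data, as were the ratios within a library and single levels under other scalings. Of the list genes, all 10 clock genes are reported, the wider list of 23 genes is counted with those called named (2 further genes planned for it are not reported here), and the 5 genes most and least like Dbp and Arntl are named. Overlapping and early genes, Ddit4 and Il2ra were named after their values were seen. The clock genes and lists were chosen with earlier results of these data known.

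Whether equal library numbers pair females with males was checked by correlating deviations from group means across genes. The correlations were 0.721, 0.548 and 0.521 for T cell numbers 4, 5 and 6, which pair by a limit of 0.1, and -0.169, -0.038 and -0.337 for B cell numbers 1, 2 and 3, which do not. The labels do not say what a number stands for. Whether replicate pools share animals is not stated, so p-values measure the spread between these libraries. The fit of B against T cells counts the T cell libraries as independent, so its p-values may be too small. The replicate block does not cover that contrast.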

Additional observations from a re-analysis of the deposited data

How the results depend on the processing

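Over 19 alternatives, the number of clock genes called between B and T cells by limma was 6 to 9, against 8 as reported, with the 6 from the filter at 5, which leaves Per2 and Per3 untested, and 8 or 9 when a single library was left out. Rescaling every library to a total of 1000000 changed several results. Under it Nr1d2 reversed (0.080) and Cry2 lost its call (-0.02) between the cell types. The median r of clock gene pairs was 0.865 in B cells and 0.773 in T cells, against 0.784 and 0.783 over all gene pairs. In T cells 18 of 18 pairs between the arms and 18 of 18 within them were positive, as were 94.6% of all tested gene pairs. In B cells 15 of 18 pairs between the arms and 13 of 18 within them were positive, against 94.9% of all tested gene pairs. There every pair that includes Per1 had a negative r, from -0.644 (Nr1d2) to -0.047 (Per3). The median SD within groups was 0.261 over the clock genes and 0.298 over all genes. Clock was called under both rescalings, without either T cell library numbered 6, and without both libraries of highest Yam1 share (0.25, limma adjusted p = 0.021). Leaving out single libraries gave a median r from -0.122 to 0.158 in B cells and from -0.119 to 0.048 in T cells. The cause of these changes was not tested. No clock gene was called between the sexes, or for the difference between sex effects, in any setting. With the replicate block, the paired fit, the counts of clock genes called were 0, 0 and 0, and the largest sex difference in T cells, that of Cry2, remained -0.17 (limma adjusted p = 1.0); the block changed no other call. Nr1d1 could be fitted only without the filter. Values below 1 had the widest bounds, which limits Per2, Per3 and Nr1d1 in T cells.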

Other observations

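Of 7 glucocorticoid-responsive genes, 6 were tested by limma between B and T cells and 4 were called, 2 in each direction, where 73.0% of all genes were called. Sgk1 was higher in T cells (-1.84, SE 0.083, limma adjusted p = 3.4e-10) and so was Fkbp5, a cochaperone of the glucocorticoid receptor (-0.77, SE 0.084, limma adjusted p = 2.8e-06). Klf9, which encodes a transcription factor, was higher in B cells (0.32, SE 0.076, limma adjusted p = 0.0023). Of 5 genes that respond to cold or heat, 2 were called, and the cold-inducible RNA-binding protein genes Cirbp (-0.52, limma adjusted p = 0.015) and Rbm3 (-0.39, limma adjusted p = 0.042) were both higher in T cells as deposited. At an equal library sum of 1000000, neither was called (-0.14 and -0.01). The remaining 3 genes, Hspa1a, Hspa1b and Hsph1, were then called higher in B cells (0.49, 0.79 and 0.85, limma adjusted p = 0.020, 0.00012 and 3.3e-05).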
